A study of Mus musculus with 10 samples.

Results

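The genes described here carry glucose into the cell and through glycolysis, lactate, pyruvate dehydrogenase and the citrate cycle. They are 42 named genes, chosen by their function with earlier results of these data known. They were found by symbol among the 47632 gene rows of the deposited table, and each symbol matched a single row. RNA was extracted from mouse striatum at 11 weeks of age and sequenced from total RNA. There were 5 libraries from R6/2 mice, labelled as R6/2 hemizygous, and 5 from their isogenic wild-type controls. R6/2 is a widely used model of Huntington's disease in which a transgene driven by the human huntingtin promoter carries that gene's first exon with a lengthened CAG stretch, so the controls lack the transgene and share the age and the tissue. Whether every library is a separate mouse is not stated in the labels; p-values here reflect how far these libraries scatter, and that scatter may be technical.

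Glycolysis splits glucose into pyruvate in the cytosol; pyruvate is either reduced to lactate or carried into mitochondria, where pyruvate dehydrogenase makes acetyl-CoA for the citrate cycle. Several steps have more than a single gene, and the alternatives differ between cell types: neurons are known for the enolase gene Eno2, astrocytes and endothelial cells for the glucose transporter gene Slc2a1. The malate-aspartate shuttle moves the reducing power of glycolysis into mitochondria and is used heavily in brain.

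Sequence just before the transcription start is shown for 3 of the genes whose level differed between the groups: Hk2, at the entry of glucose into the pathway, and Eno2 and Ldhb, further down. The sequences are those of RefSeq for build GRCm38.p6, each 250 bases long and ending at the last base before RefSeq's start, on the strand of the gene. Capitals mark ACGTG, a form of the core bound by hypoxia-inducible factors, or CACGT, the same letters on the other strand. The form GCGTG was not searched and is not marked, and the Ldhb sequence below holds it.
Hk2 (chr6:82774455-82774704, minus strand): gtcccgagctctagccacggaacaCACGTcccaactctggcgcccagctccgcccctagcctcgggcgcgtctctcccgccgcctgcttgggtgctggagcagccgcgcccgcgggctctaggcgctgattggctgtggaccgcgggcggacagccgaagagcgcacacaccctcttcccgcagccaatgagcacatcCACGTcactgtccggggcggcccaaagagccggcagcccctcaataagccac
Eno2 (chr6:124769674-124769923, minus strand): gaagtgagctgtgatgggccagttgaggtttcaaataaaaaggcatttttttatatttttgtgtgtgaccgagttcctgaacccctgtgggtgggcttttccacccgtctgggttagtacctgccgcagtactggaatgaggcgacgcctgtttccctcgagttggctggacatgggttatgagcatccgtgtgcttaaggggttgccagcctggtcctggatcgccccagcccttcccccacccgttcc
Ldhb (chr6:142507958-142508207, minus strand): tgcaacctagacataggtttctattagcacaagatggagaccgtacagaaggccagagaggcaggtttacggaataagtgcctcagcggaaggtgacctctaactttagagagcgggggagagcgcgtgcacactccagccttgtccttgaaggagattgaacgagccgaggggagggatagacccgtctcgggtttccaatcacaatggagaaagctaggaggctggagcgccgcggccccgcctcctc
RefSeq listed a promoter for 39 of the 42 genes, and ACGTG was searched on both strands within the 250 bases before each start that RefSeq lists. That start can differ from the gene bounds given below, which are Gencode's; for Slc2a1 and Pfkfb3 it lies inside them. ACGTG was present on either strand for 15 of the 39 genes, or 38.5%, against 18.5% of all genes with a listed promoter and 20% of protein-coding genes. The longer E-box CACGTG, which contains ACGTG, was present for 6 of the 39 genes (15.4%), against 6.86% of all genes. The estrogen-related receptor core AAGGTCA was found for 2 genes (5.13%, against 4.7% of all genes) and the cyclic AMP response element TGACGTCA for 3 (7.69%, against 1.77%). Hk2 had a match at 226 to 222 bases and another at 52 to 48 bases before the start. Of the 6 genes that passed the test below and have a listed promoter, Slc2a1, Hk2, Pfkfb3 and Ogdh held ACGTG on either strand, and Eno2 and Ldhb did not. These matches describe letters in a window and do not show that a factor binds there.

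Expression was given as FPKM, fragments per kilobase of transcript, scaled to the mapped fragments of each library. A gene was tested where its mean over the 10 libraries reached 1 FPKM, and the groups were compared with limma on log2(FPKM + 1). Every log2 change below is R6/2 minus control on that scale, which understates changes of low genes. A gene was called where its p-value, adjusted by the Benjamini-Hochberg method over all 15905 genes tested, was under 0.05. The low values of long genes with a single transcript fell near whole steps, from which depth was estimated at about 5310000 to 10700000 fragments in R6/2 and 5540000 to 7910000 in control libraries. Leaving out mitochondrially encoded genes, protein-coding genes summed to 193203 to 202906 in R6/2, against 211209 to 219426 in control libraries, with no overlap. The mitochondrial genome took 22.1 to 29.9% of all FPKM in R6/2, against 28.1 to 33.8% in controls.

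Marker genes of striatal cell types were present in controls and several lists moved with genotype. All 12 markers of striatal spiny projection neurons, the cells that make up most of the striatum, fell, with a summed level of 310 to 477 FPKM in R6/2, against 1867 to 2384 FPKM in controls. Of 9 astrocyte markers 5 were called lower, and all 9 had a negative log2 change, 7 with an unadjusted p under 0.05 by limma. The 9 summed to 427 to 529 FPKM in R6/2 and 756 to 842 in controls. Of 8 myelin markers 5 were called lower, and all 8 had a negative log2 change with an unadjusted p under 0.05 by limma. The 8 summed to 722 to 1099 FPKM in R6/2 and 1557 to 1764 in controls. Of 7 cortical excitatory neuron markers 2 were called higher, among them the transcription factor gene Neurod2. All 7 had a positive log2 change, 4 with an unadjusted p under 0.05 by limma. The 7 summed to 59.95 to 108 FPKM in R6/2 and 27.5 to 60.2 FPKM in controls. The 6 pan-neuronal markers other than Eno2 held 1 called higher, the growth-associated Stmn2, and 1 called lower, Rbfox3, the gene of the nuclear marker NeuN. These 6 summed to 1973 to 3337 FPKM in R6/2 and 2530 to 2930 FPKM in controls. Endothelial and mural markers had 0 calls by limma among the 7 tested of 8, and 0 at an unadjusted p under 0.05 (62.2 to 73.3 FPKM in R6/2, 67.2 to 91.6 in controls), microglial markers 1 lower call among the 7 tested of 8 (58.1 to 62.3 FPKM in R6/2, 64.3 to 77.4 in controls) and blood markers 2 lower calls of 5 (10.2 to 20.7 FPKM in R6/2, 24.7 to 41.9 in controls). No marker was listed at 0 in every library. Their part in the results below was not tested beyond a fit that holds the cortical marker signal fixed, and in whole tissue fewer cells of a type and less RNA per cell cannot be told apart.

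Most of the pathway did not pass the test between genotypes. Of the 42 genes 41 were tested, and 7 were called: Slc2a1, Hk2 and Idh3a were higher in R6/2 striatum, and Pfkfb3, Eno2, Ldhb and Ogdh were lower. That is 17.1% of those tested, against 14.1% of all genes tested; 7.32% were higher, against 5.00% of all genes, and 9.76% were lower, against 9.11%. The libraries of the groups did not overlap for 7 genes, 4 with R6/2 above (4.50% of all genes tested) and 3 with R6/2 below (8.58% of all genes tested); 6 of the 7 were called, and the seventh was Hk1. The shares called are near those of all genes, so the count by itself does not set the pathway apart. The median log2 change was -0.0034 over the pathway and 0.0010 over all genes, and the median size regardless of sign was 0.16 over the pathway and 0.26 over all genes. These comparisons with all genes were not matched for expression level. A minimum mean of 5 FPKM kept 37 of the pathway's genes and 9015 of all genes. It gave 3 higher and 4 lower calls in the pathway, against 647 higher and 1134 lower over all genes. With the minimum of 1 FPKM, the log2 changes of the 41 genes lay between -0.71, for Pfkfb3, and 0.44, for Slc2a1. For 23 of the 34 uncalled genes the 95% interval of the log2 change lay within 0.5 of zero on both sides, and for 31 within 1. How many genes passed in each direction depended on the scale: 5 higher and 1 lower after quantile normalization, and 6 higher and 2 lower when protein-coding genes were rescaled to the same total in each library. Over all genes tested, the quantile fit called 1111 higher and 1277 lower of 15905. The rescaled fit called 1644 higher and 1086 lower of 11693. The rescaled fit tested and adjusted over only 11693 protein-coding genes outside the mitochondrial genome. Over these genes the median log2 change was 0.11. Relative to it the 7 called genes were at 0.45 (Slc2a1), 0.43 (Hk2), 0.44 (Idh3a), -0.71 (Pfkfb3), -0.49 (Eno2), -0.29 (Ldhb) and -0.29 (Ogdh).

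**Figure D1:**
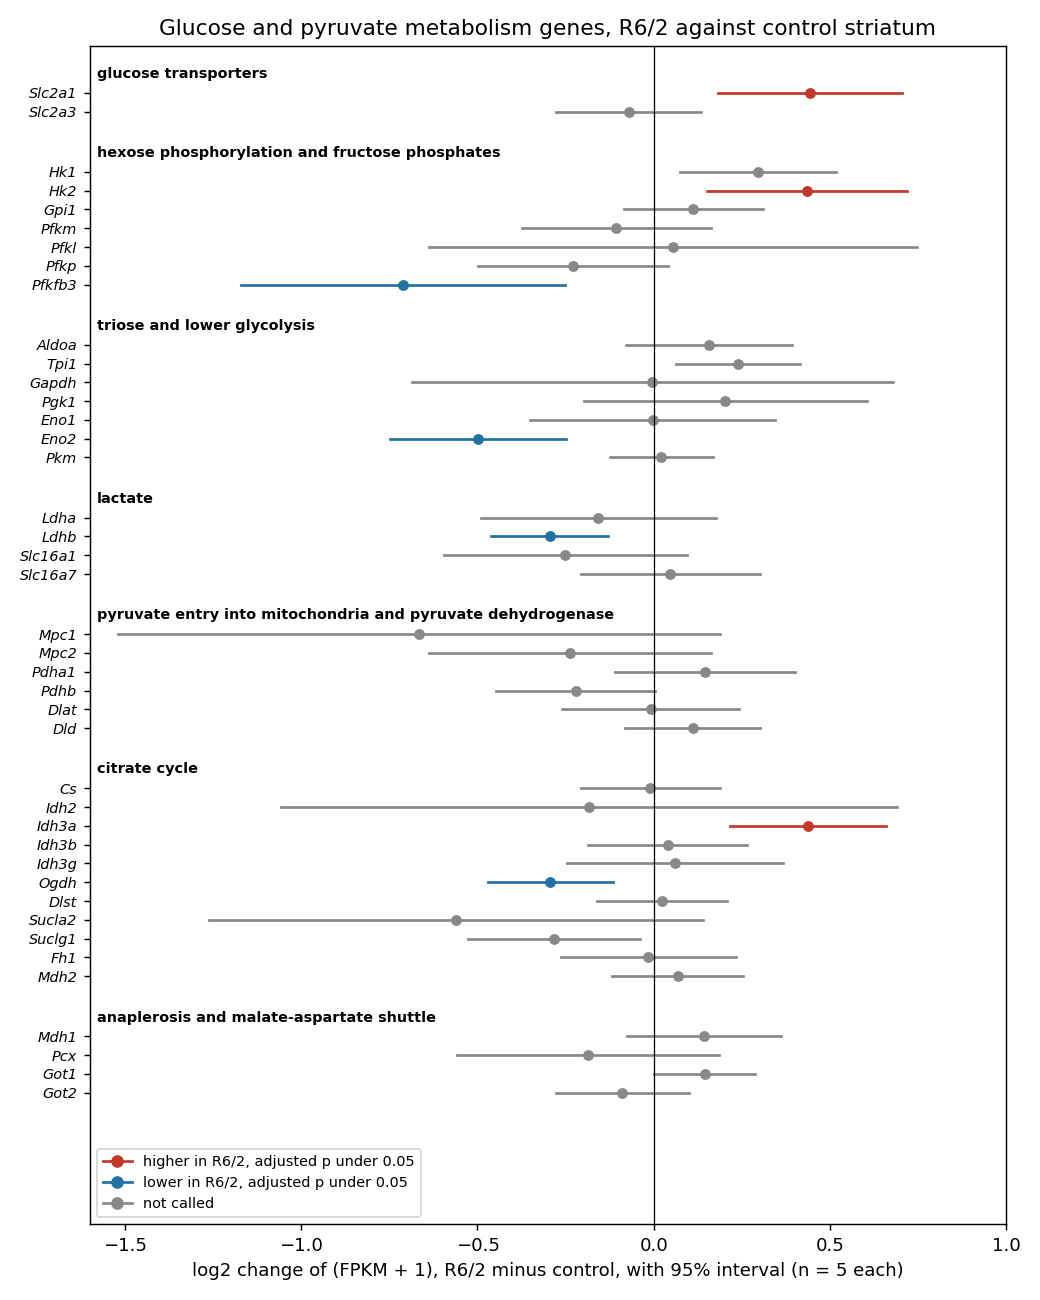
Log2 change of FPKM + 1, R6/2 minus control, for the 41 tested genes grouped by step (horizontal axis); points are limma estimates and lines 95% intervals, with 5 libraries a group. The 3 genes called higher lie near 0.44 and the 4 called lower between -0.71 and -0.29, while most intervals cross 0.

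Summed over the 42 genes, expression was 2014 to 2138 FPKM in R6/2, against 2046 to 2225 FPKM in controls, with overlap. Of the 42 genes, 7 averaged at least 100 FPKM in controls.

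Slc2a1, the gene of the glucose transporter GLUT1 of the blood-brain barrier and glia, lies on GRCm38 chromosome 4, from 119108711 to 119137983 on the plus strand. It measured 47.3, 39.8, 48.9, 55.6 and 41.5 FPKM in R6/2 replicates 1 to 5, against 39.4, 28.2, 31.7, 34.0 and 36.7 FPKM in control replicates 1 to 5. The lowest R6/2 library (39.8) was just above the highest control library (39.4). The means were 46.6 ± 6.30 FPKM in R6/2 and 34.0 ± 4.34 FPKM in controls (SD, n = 5 each), 1.37-fold higher in R6/2, with a log2 change of 0.44 (SE 0.12) and an adjusted p of 0.0311 by limma. Endothelial markers had no call and astrocyte markers were lower, as given above, and whether either bears on the level of Slc2a1 was not tested. The call ended when R6/2 replicate 1, 3 or 4 or control replicate 2, 3 or 4 was left out, with adjusted p of 0.058 to 0.07 by limma. An antisense gene, Gm12868, overlaps exons of Slc2a1 and averaged 1.69 FPKM in R6/2 and 0.649 FPKM in controls; no source used here states whether counting used strand.

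Slc2a3, which encodes the neuronal glucose transporter GLUT3, was not called. It measured 11.1, 9.997, 9.37, 10.6 and 8.87 FPKM in R6/2, against 11.8, 9.78, 11.0, 11.2 and 8.96 FPKM in controls. The groups overlapped over nearly their whole range, and the log2 change was -0.07 (95% interval -0.28 to 0.14). The log2 ratio of Slc2a1 to Slc2a3, taken on FPKM + 1 as for all ratios here, averaged 2.11 ± 0.171 in R6/2 and 1.596 ± 0.202 in controls (SD, n = 5 each), a difference of 0.51 with overlap (exact permutation test, 2-sided, p = 0.0159). Adjusted over the 10 ratios of genes sharing a step that were examined, p was 0.0794.

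Hk2, the inducible hexokinase bound to mitochondria, lies on chromosome 6, from 82725025 to 82774454 on the minus strand. It measured 6.74, 7.34, 7.48, 7.57 and 8.07 FPKM in R6/2, against 6.45, 6.27, 4.40, 5.61 and 3.87 FPKM in controls. Every R6/2 library was above every control library, by a narrow margin at the nearest pair. The means were 7.44 ± 0.478 FPKM in R6/2 and 5.32 ± 1.14 FPKM in controls (SD, n = 5 each), a 1.40-fold difference with a log2 change of 0.43 (SE 0.13) and an adjusted p of 0.048 by limma. The values rest on an estimated 215 to 399 fragments in R6/2 and 118 to 277 in control libraries. Leaving out control replicate 1 or 2 kept the call, and leaving out any of the other 8 libraries (R6/2 replicates 1 to 5, control replicates 3, 4 and 5) ended it, at adjusted p of 0.0652 to 0.11 by limma. It also ended with a pseudocount of 0.1 FPKM (adjusted p = 0.0532), with no filter on low values (0.0824) and with no trend (0.0553).

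Hk1, the constitutive brain hexokinase, was more abundant than Hk2 in both groups. It measured 12.5, 11.9, 14.7, 13.3 and 13.4 FPKM in R6/2, against 8.36, 11.6, 11.7, 10.4 and 10.9 FPKM in controls. The groups did not overlap, but the log2 change of 0.30 (95% interval 0.07 to 0.52) had an adjusted p of 0.0785 by limma; with protein-coding genes rescaled it was 0.40 with an adjusted p of 0.0206. The log2 ratio of Hk2 to Hk1 differed by 0.14 between the groups and did not pass the exact permutation test.

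Pfkfb3 makes the fructose bisphosphate that activates phosphofructokinase, and its protein is known to be kept low in neurons. The gene lies on chromosome 2, from 11471433 to 11554077 on the minus strand. It measured 7.32, 4.90, 4.71, 9.46 and 8.003 FPKM in R6/2, against 16.1, 9.16, 13.3, 10.02 and 10.4 FPKM in controls. The groups overlapped at a single pair, R6/2 replicate 4 (9.46) and control replicate 2 (9.16). The means were 6.88 ± 2.04 FPKM in R6/2 and 11.8 ± 2.85 FPKM in controls (SD, n = 5 each), a log2 change of -0.71 (SE 0.21) and an adjusted p of 0.0469 by limma. The call held without R6/2 replicate 4 and ended without any of the other 9 libraries (R6/2 replicates 1, 2, 3 and 5, control replicates 1 to 5), at adjusted p of 0.0526 to 0.109 by limma; it also ended with no filter on low values (0.08) and with no trend (0.0533). With the cortical marker signal held fixed the log2 change was -0.14 (adjusted p = 0.702 by limma).

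The phosphofructokinase genes that this activator acts on were not called. Pfkp, the most abundant of them, measured 56.5, 65.5, 59.1, 54.5 and 48.7 FPKM in R6/2, against 67.8, 71.4, 71.6, 74.8 and 50.3 FPKM in controls. Only control replicate 5 fell into the R6/2 range; without it the log2 change was -0.33 with an adjusted p of 0.0333 by limma, and with all libraries it was -0.23 (adjusted p = 0.259). Part of Pfkp overlaps the neighbouring gene Pitrm1. Pfkm, the muscle-type subunit gene, had a log2 change of -0.11 and Pfkl, the liver-type, one of 0.06 with a wide interval (-0.64 to 0.75). Gpi1, which interconverts glucose and fructose phosphates, averaged 37.9 ± 2.86 FPKM in R6/2 and 35.1 ± 3.67 FPKM in controls (SD, n = 5 each) and was not called.

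In lower glycolysis, Eno2, the neuron-specific enolase gene, lies on chromosome 6, from 124760053 to 124769673 on the minus strand. It measured 77.3, 73.0, 76.6, 77.8 and 65.7 FPKM in R6/2, against 124, 105, 98.2, 119 and 83.0 FPKM in controls. All R6/2 libraries lay below all control libraries, and they were tightly grouped. The means were 74.1 ± 5.02 FPKM in R6/2 and 106 ± 16.6 FPKM in controls (SD, n = 5 each), 0.699 of the control mean, with a log2 change of -0.50 (SE 0.11) and an adjusted p of 0.0159 by limma. The call held in all 10 fits that left out 1 library (adjusted p 0.00299 to 0.0357 by limma) and ended after quantile normalization, where the log2 change was -0.35. The other pan-neuronal markers held 1 higher and 1 lower call, as given above.

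Eno1, the ubiquitous enolase gene, measured 22.3, 16.9, 20.1, 20.2 and 24.4 FPKM in R6/2, against 25.5, 19.6, 20.5, 25.4 and 14.6 FPKM in controls. The groups overlapped throughout, with a log2 change of -0.0024 (95% interval -0.35 to 0.35). The log2 ratio of Eno1 to Eno2 averaged -1.79 ± 0.246 in R6/2 and -2.29 ± 0.104 in controls (SD, n = 5 each), with every R6/2 library above every control library. The difference of 0.50 had p = 0.00794 (exact permutation test, 2-sided), the smallest that 5 against 5 libraries allow, and 0.0794 adjusted over the 10 ratios. Since 72.2% of the Eno1 transcript, in words of 50 bases, is also found in other annotated transcripts (the copy Eno1b holds 70.5%), the level of Eno1 is uncertain.

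**Figure D2:**
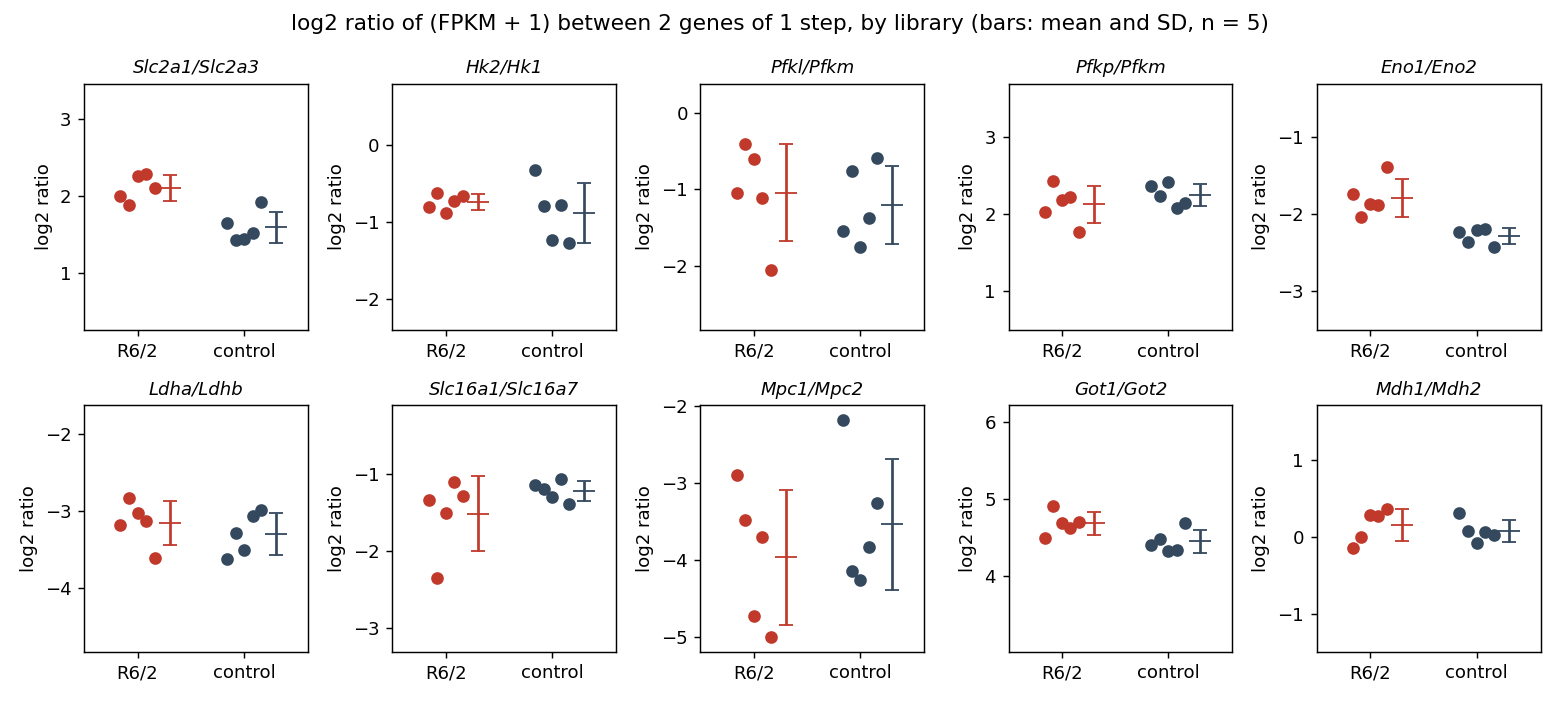
Log2 ratio of FPKM + 1 between the genes of a step (vertical axis) in each library, R6/2 left and control right, with mean and SD (n = 5). For Eno1/Eno2 the R6/2 libraries lie above the controls without overlap (difference 0.50). None of the 10 ratios passed after adjustment, which a single ratio cannot do even with complete separation.

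The other genes of lower glycolysis were not called. Tpi1, triose phosphate isomerase, averaged 33.6 ± 2.88 FPKM in R6/2 and 28.2 ± 1.84 FPKM in controls (SD, n = 5 each), a log2 change of 0.24 with an adjusted p of 0.0741 by limma. It passed without R6/2 replicate 1 (0.28, adjusted p = 0.0312), after quantile normalization (0.31, adjusted p = 0.0363) and with protein-coding genes rescaled (0.35, adjusted p = 0.0121). Aldoa, aldolase, averaged 143 ± 13.5 FPKM in R6/2 and 128 ± 17.1 FPKM in controls, and Pkm, pyruvate kinase, 36.5 ± 1.71 FPKM in R6/2 and 35.9 ± 2.297 FPKM in controls (SD, n = 5 each). The interval of Pkm, -0.13 to 0.17, was among the narrow ones, but 34.4% of its transcript, in words of 50 bases, occurs in other annotated genes.

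Gapdh, the dehydrogenase often used as a reference transcript, had low and scattered values. It measured 7.85, 5.26, 4.06, 11.8 and 7.22 FPKM in R6/2, against 14.2, 5.70, 5.22, 6.26 and 5.48 FPKM in controls. The groups overlapped and the interval of its log2 change, -0.69 to 0.68, was wide. Of its transcript, 82.5% occurs in other annotated genes, 72 of which share at least 10% of it, and the listed copies sum to 13.4 FPKM in R6/2 and 15.9 FPKM in controls. The same limit holds for Pgk1, phosphoglycerate kinase (68.0% shared, log2 change 0.20), and for Pgam1, phosphoglycerate mutase (41.5% shared), which averaged 0.305 ± 0.224 FPKM in R6/2 and 0.378 ± 0.213 FPKM in controls (SD, n = 5 each) and was the 1 gene left untested. At least 10% of the transcript was shared for 14 of the 42 genes and none for 20; among the 7 called genes, Ldhb alone reached 10%. The 14 genes are Gpi1, Pfkp, Aldoa, Gapdh, Pgk1, Pgam1, Eno1, Pkm, Ldha, Ldhb, Mpc1, Pdha1, Pdhb and Got2. No source used here states how reads matching several genes were divided, so the levels of these 14 genes are uncertain.

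**Figure D3:**
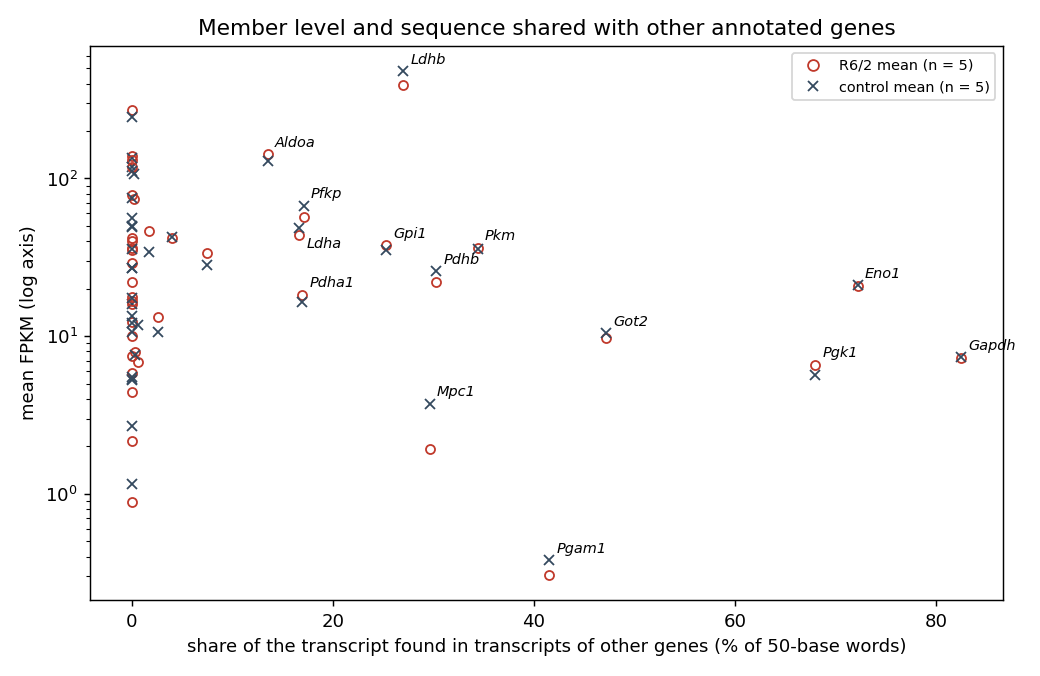
Mean FPKM (vertical log axis, n = 5 a group) against the share of each transcript that occurs in other annotated genes (horizontal axis, % of 50-base words), circles for R6/2 and crosses for control. Gapdh (82.5%), Eno1 (72.2%) and Pgk1 (68.0%) stand at the right with modest FPKM, and Ldhb (27.01%) has the highest deposited FPKM.

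At the lactate step, Ldhb, the lactate dehydrogenase subunit of oxidative tissue, had the highest deposited FPKM of the 42 genes in both groups; it lies on chromosome 6, from 142490249 to 142507957 on the minus strand. It measured 403, 361, 396, 401 and 388 FPKM in R6/2, against 543, 461, 461, 498 and 434 FPKM in controls. All R6/2 libraries were below all control libraries. The means were 390 ± 17.1 FPKM in R6/2 and 480 ± 42.1 FPKM in controls (SD, n = 5 each), 0.813 of the control mean, with a log2 change of -0.29 (SE 0.07) and an adjusted p of 0.0265 by limma. The call ended without R6/2 replicate 2 (adjusted p = 0.0521), after quantile normalization (-0.12) and with protein-coding genes rescaled (-0.18). A pseudogene, Gm5514, holds 27.01% of the transcript and averaged 1.75 FPKM in R6/2 and 1.80 FPKM in controls.

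Ldha, the subunit of glycolytic tissue, measured 43.7, 49.97, 48.0, 44.9 and 30.9 FPKM in R6/2, against 43.4, 46.4, 39.9, 58.7 and 54.0 FPKM in controls. The groups overlapped; the log2 change was -0.16 (95% interval -0.49 to 0.18), and the log2 ratio of Ldha to Ldhb differed by 0.14 without passing. The monocarboxylate transporter genes were not called: Slc16a1 averaged 2.17 ± 0.608 FPKM in R6/2 and 2.70 ± 0.196 FPKM in controls (SD, n = 5 each), and Slc16a7, the neuronal form, had a log2 change of 0.05.

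None of the 6 genes of the mitochondrial pyruvate carrier and pyruvate dehydrogenase was called by limma, and none had an unadjusted p under 0.05. The carrier gene Mpc1 measured 3.73, 2.19, 0.753, 2.21 and 0.741 FPKM in R6/2, against 7.28, 2.18, 2.21, 1.88 and 5.12 FPKM in controls. Its groups overlapped, the interval was wide (log2 change -0.67, 95% interval -1.52 to 0.19), and the estimated depth was 4.92 to 38.5 fragments in R6/2 and 11.3 to 54.5 in controls. Its partner Mpc2 averaged 41.9 ± 8.42 FPKM in R6/2 and 49.9 ± 10.9 FPKM in controls (SD, n = 5 each). Of the dehydrogenase subunits, Pdha1 had a log2 change of 0.15, Pdhb one of -0.22, the acetyltransferase gene Dlat one of -0.01 and the lipoamide dehydrogenase gene Dld one of 0.11.

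In the citrate cycle, Idh3a encodes the catalytic subunit of the NAD-dependent isocitrate dehydrogenase and lies on chromosome 9, from 54586334 to 54604661 on the plus strand. It measured 16.6, 18.1, 17.6, 18.1 and 13.7 FPKM in R6/2, against 11.9, 13.4, 11.3, 13.5 and 10.6 FPKM in controls. All R6/2 libraries were above all control libraries, the nearest pair being 13.7 and 13.5. The means were 16.8 ± 1.85 FPKM in R6/2 and 12.1 ± 1.26 FPKM in controls (SD, n = 5 each), 1.39-fold higher in R6/2, with a log2 change of 0.44 (SE 0.10) and an adjusted p of 0.0166 by limma. The call held in all 10 fits that left out 1 library (adjusted p 0.00547 to 0.0411 by limma).

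The regulatory subunit genes of the same enzyme were more abundant and were not called. Idh3b measured 139, 114, 161, 150 and 129 FPKM in R6/2, against 130, 148, 142, 125 and 124 FPKM in controls, and some of its exons overlap Nop56. Idh3g measured 69.6, 73.7, 86.3, 101 and 62.3 FPKM in R6/2, against 74.2, 87.8, 65.0, 78.1 and 68.1 FPKM in controls. Both overlapped between groups, with log2 changes of 0.04 (95% interval -0.19 to 0.27) for Idh3b and 0.06 (-0.25 to 0.37) for Idh3g; a difference between the subunits' changes was not tested. Idh2, the NADP-dependent mitochondrial enzyme, scattered widely, at 4.41 ± 2.65 FPKM in R6/2 and 5.28 ± 3.05 FPKM in controls (SD, n = 5 each).

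Ogdh, the first component of the oxoglutarate dehydrogenase complex at the next step, lies on chromosome 11, from 6291633 to 6356642 on the plus strand. It measured 22.5, 22.8, 23.5, 19.1 and 21.5 FPKM in R6/2, against 29.6, 28.2, 26.3, 26.95 and 24.2 FPKM in controls. The highest R6/2 library (23.5) was below the lowest control library (24.2). The means were 21.9 ± 1.71 FPKM in R6/2 and 27.04 ± 2.01 FPKM in controls (SD, n = 5 each), 0.810 of the control mean, with a log2 change of -0.29 (SE 0.08) and an adjusted p of 0.0347 by limma. The call ended with no trend (adjusted p = 0.0521), without R6/2 replicate 4 or 5 or control replicate 1, 2, 3 or 4 (adjusted p 0.0509 to 0.0645 by limma), after quantile normalization (-0.23) and with protein-coding genes rescaled (-0.18). Dlst, the second component of the complex, averaged 17.6 ± 1.46 FPKM in R6/2 and 17.4 ± 1.59 FPKM in controls (SD, n = 5 each).

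The remaining citrate cycle genes were not called. Sucla2, a subunit of succinyl-CoA ligase, measured 35.8, 28.2, 34.9, 24.9 and 57.0 FPKM in R6/2, against 34.6, 59.3, 34.2, 52.5 and 99.4 FPKM in controls. The groups overlapped with a wide interval (log2 change -0.56, 95% interval -1.26 to 0.14). Suclg1, its partner subunit, averaged 39.9 ± 3.69 FPKM in R6/2 and 49.0 ± 6.84 FPKM in controls (SD, n = 5 each), with an adjusted p of 0.124 by limma; it passed only without control replicate 5 (log2 change -0.36, adjusted p = 0.033). The citrate synthase gene Cs averaged 41.98 ± 1.96 FPKM in R6/2 and 42.5 ± 5.38 FPKM in controls, and the malate dehydrogenase gene Mdh2 118 ± 13.0 FPKM in R6/2 and 112 ± 3.59 FPKM in controls (SD, n = 5 each). The fumarase gene Fh1 averaged 35.4 FPKM in R6/2 and 35.9 FPKM in controls.

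In the malate-aspartate shuttle, Got1, the cytosolic aspartate aminotransferase, measured 269, 297, 262, 265 and 271 FPKM in R6/2, against 233, 264, 233, 249 and 255 FPKM in controls. Only control replicate 2 (264) reached into the R6/2 range; the log2 change was 0.15 (95% interval 0.00 to 0.29) with an adjusted p of 0.177 by limma. It passed after quantile normalization (0.33, adjusted p = 0.00574) and with protein-coding genes rescaled (0.26, adjusted p = 0.0184). Its mitochondrial counterpart Got2 had a log2 change of -0.09, and the cytosolic malate dehydrogenase Mdh1 averaged 131 ± 16.2 FPKM in R6/2 and 118 ± 10.3 FPKM in controls (SD, n = 5 each). Pcx, pyruvate carboxylase of astrocytes, averaged 0.889 ± 0.180 FPKM in R6/2 and 1.155 ± 0.260 FPKM in controls, a level close to the filter, and was not called.

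**Figure D4:**
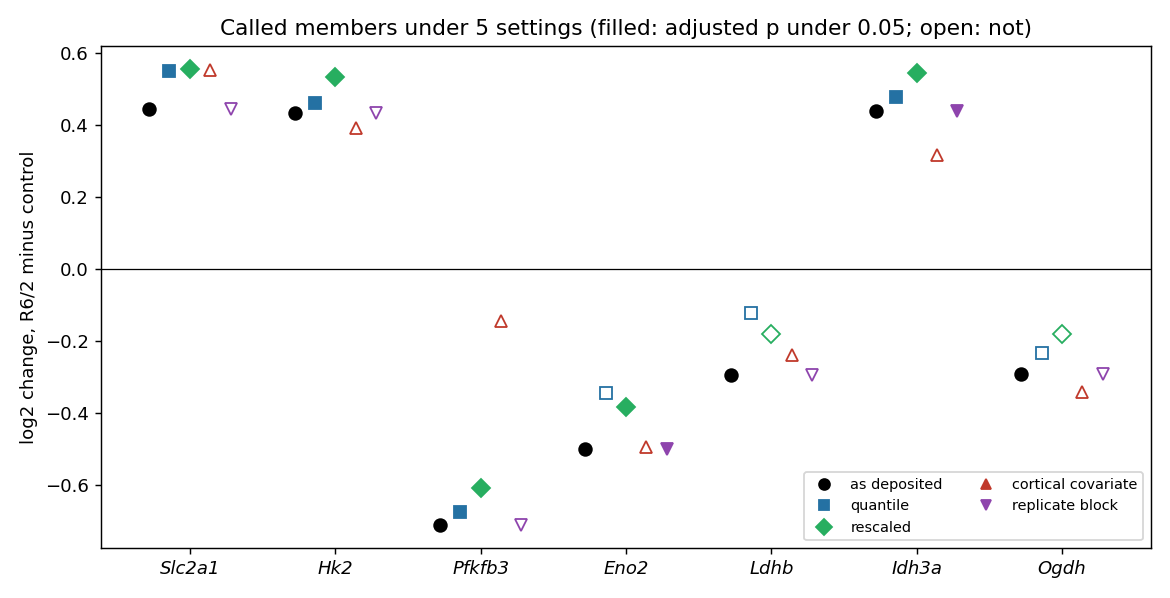
Log2 change, R6/2 minus control, of the 7 called genes as deposited and under 4 other settings (vertical axis); filled symbols have an adjusted p under 0.05. Every symbol keeps the direction found as deposited, Idh3a is filled in 4 of 5 settings, and with the cortical marker signal held fixed no symbol is filled. In that fit standard errors, not drawn, were larger than as deposited for all but Pfkfb3.

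All 7 calls ended when the mean log2 level of the 7 cortical markers was added to the model. That measure was 3.02 to 3.81 in R6/2, against 2.11 to 3.03 in controls, so the groups barely overlapped on it. In that fit, by limma, 7 of the 41 tested genes had an unadjusted p under 0.05, as did 2615 of all 15905 genes tested. These shares are near each other, so the count by itself does not set the pathway apart. The log2 changes in that fit were 0.55 for Slc2a1, 0.39 for Hk2, 0.32 for Idh3a, -0.14 for Pfkfb3, -0.49 for Eno2, -0.24 for Ldhb and -0.34 for Ogdh, with adjusted p of 0.122 to 0.702 by limma. Their standard errors, in the same order, were 0.166, 0.189, 0.137, 0.151, 0.168, 0.107 and 0.115. As deposited the standard errors were 0.116, 0.127, 0.0993, 0.206, 0.112, 0.0743 and 0.0789. Whether the cortical signal accounts for any of these changes was not tested.

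The wider pathway was examined through 8 further lists, of 115 genes in all, of which 92 were tested. Of these 92, 4 were called higher and 9 lower, against 5.00% higher and 9.11% lower over all genes tested. These calls are near the shares of all genes. Their median log2 change was -0.06. An unadjusted p under 0.05 by limma was found for 38 of the 92, and for 4367 of all 15905 genes tested. On this measure the share was larger in the 8 lists than over all genes tested. Among 11 genes that control or lipoylate pyruvate dehydrogenase, all tested, Pdp1 was called lower and the rest were not called. Pdp1, the phosphatase that switches the enzyme on, measured 11.8, 13.2, 11.4, 11.0 and 13.8 FPKM in R6/2, against 41.9, 32.0, 34.0, 32.7 and 34.3 FPKM in controls. Every R6/2 library was far below every control library, with a log2 change of -1.44 and an adjusted p of 2.01e-05 by limma, and the call held in every alternative fit. The opposing kinase gene Pdk1 averaged 6.50 FPKM in R6/2 and 4.10 FPKM in controls and was not called (log2 change 0.53, adjusted p = 0.0572 by limma).

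Among 18 other citrate cycle and anaplerosis genes, 0 were called higher by limma (2 with an unadjusted p under 0.05) and 4 were called lower (7 with an unadjusted p under 0.05). The mitochondrial malic enzyme gene Me2 averaged 9.42 ± 1.22 FPKM in R6/2 and 19.6 ± 4.43 FPKM in controls (log2 change -0.97, adjusted p = 0.00188 by limma, n = 5 each). The ATP citrate lyase gene Acly averaged 52.2 ± 5.06 FPKM in R6/2 and 75.3 ± 8.57 FPKM in controls (-0.52, adjusted p = 0.00594). The groups did not overlap for either gene, and both calls held in all 10 fits without 1 library and ended only with the cortical signal held fixed. Me3, another mitochondrial malic enzyme gene, was also called lower (-0.44, adjusted p = 0.0365); it ended without any of R6/2 replicates 1, 2, 3 and 5 or control replicates 1, 3, 4 and 5, at adjusted p of 0.0596 to 0.0793, and also after quantile normalization (0.0555) and with protein-coding genes rescaled (0.0681).

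The other 6 lists held few calls. Of glucose and lactate transport genes, Emb, a partner protein of monocarboxylate transporters, averaged 8.60 ± 1.90 FPKM in R6/2 and 4.66 ± 0.798 FPKM in controls (0.75, adjusted p = 0.00827 by limma, n = 5 each). Slc2a13, a proton-coupled inositol transporter, averaged 17.0 FPKM in R6/2 and 24.8 FPKM in controls (-0.51, adjusted p = 0.0111). Of 8 pentose phosphate genes, Pgd, phosphogluconate dehydrogenase, was higher, at 5.88 ± 0.583 FPKM in R6/2 and 4.05 ± 0.598 FPKM in controls (0.45, adjusted p = 0.0178). Of 13 tested glycogen genes, Gyg, the glycogenin primer, was higher (0.44, adjusted p = 0.0198) and Phkb, a phosphorylase kinase subunit, lower (-0.49, adjusted p = 0.0295). Of 13 tested further glycolysis and gluconeogenesis genes only Gpd1, the cytosolic glycerol phosphate dehydrogenase, was called (-0.86, adjusted p = 0.0209). At an unadjusted p under 0.05 by limma, 5 of the 13 were higher and 4 lower. Of 15 tested transcriptional regulators of glucose metabolism, the hypoxia-inducible factor gene Epas1 was lower (-0.35, adjusted p = 0.0166) and Trp53, the gene of p53, higher (0.37, adjusted p = 0.0495). None of 7 tested mitochondrial carboxylate and aspartate carrier genes was called by limma, and 1 had an unadjusted p under 0.05. Of the calls in these 6 lists, those of Emb, Slc2a13, Pgd, Gyg and Epas1 held when any single library was left out. With protein-coding genes rescaled the call of Epas1 ended (-0.24, adjusted p = 0.0731), as did that of Phkb (-0.39, adjusted p = 0.0529). With the cortical signal held fixed all 8 calls ended (adjusted p 0.0969 to 0.361 by limma). The call of Gpd1 ended without control replicate 1, 2, 3 or 4 (adjusted p 0.0505 to 0.0541), and that of Phkb without R6/2 replicate 3 or 5 or control replicate 1, 3, 4 or 5 (0.0546 to 0.0693). The call of Trp53 held only without R6/2 replicate 4; without any of R6/2 replicates 1, 2, 3 and 5 or control replicates 1 to 5 the adjusted p was 0.0572 to 0.102.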

How the data were processed

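Striatal RNA of 5 R6/2 and 5 control libraries was made into libraries with NuGEN Ovation amplification and Nextera, per the labels' protocols. The deposited table holds FPKM values per gene; the submitters' processing notes name STAR 2.4.0, Cufflinks, Cuffdiff and GRCm38. Further scaling, the strand setting and the handling of reads shared between genes are stated in no source used here. The FPKM values as deposited were tested with limma 3.58.1 (R 4.3.3, trend on) on log2(FPKM + 1) for genes whose mean reached 1 FPKM, with Benjamini-Hochberg adjustment over 15905 genes; the fit was tested on simulated data. Ratios were compared by exact permutation over 252 splits. Depth was estimated from genes with a single transcript of at least 1500 bases, where 76.2 to 80.7% of values between 0.5 and 4.5 fragments lay within 0.1 of a whole number, assuming no further scaling. Shared sequence was counted as 50-base words of Gencode M21 transcripts. The 42 genes and all lists were chosen with earlier results of these data known. Values are given in full for called genes and their counterparts at the same step, and, in other lists, for the 3 called genes with the smallest p, of which 1 is not reported here; Gapdh, Mpc1, Sucla2, Got1, Pdk1 and Pfkp were added after their values were seen. Alternatives were other pseudocounts, filters and scalings, no trend, a replicate block, the cortical covariate and leaving out each library.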

Additional observations from a re-analysis of the deposited data

Results flagged for a closer look

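In 104 groups of 5 libraries (each of the 42 genes and 10 ratios in each genotype), 6 held a library whose gap to its nearest neighbour was more than 0.71 of the group's whole range; chance flags about 1 in 20 groups. In R6/2 libraries, Slc16a1 was at 1.09 FPKM in replicate 2, where the nearest was 2.28 FPKM, and Got1 at 297.0 FPKM in replicate 2, where the nearest was 271 FPKM. In control libraries, Gapdh was at 14.2 FPKM in replicate 1 (nearest 6.26 FPKM) and Dlst at 20.2 FPKM in replicate 3 (nearest 16.9 FPKM). Control replicate 5 was low for Pfkp, at 50.3 FPKM (nearest 67.8 FPKM), and for Pcx, at 0.714 FPKM (nearest 1.17 FPKM). None of the 7 called genes had such a library.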

How the results depend on the processing

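Members called higher and lower were 3 and 4 as deposited, 5 and 1 after quantile normalization, 6 and 2 with protein-coding genes rescaled, 2 and 4 with a pseudocount of 0.1 FPKM, 2 and 3 with no filter on low values, 2 and 2 with no trend, and 0 and 0 with the cortical marker covariate, where 7 members still had an unadjusted p under 0.05 by limma. Over all genes the calls were 795 higher and 1449 lower as deposited, 1644 higher and 1086 lower when rescaled, and 123 higher and 530 lower with the cortical covariate. Leaving out 1 library gave 1 to 3 members higher and 2 to 5 lower, and over all genes 576 to 890 higher and 1193 to 1518 lower. Same-numbered R6/2 and control libraries did not deviate together (correlations -0.021, -0.0148, -0.0528, -0.0198 and 0.0495 for replicates 1 to 5). The correlations cannot show whether these libraries were handled as pairs, and the labels state no pairing. A replicate block gave 1 member higher and 1 lower, Idh3a (adjusted p = 0.0248) and Eno2 (adjusted p = 0.0232 by limma), and 370 genes higher and 975 lower over all genes. The block also ended the calls of Emb, Gyg, Epas1, Gpd1, Phkb, Trp53 and Me3 in the other lists (adjusted p 0.0552 to 0.162 by limma). The cause of these shifts was not tested. The direction of the 7 called members was the same in all fits.

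Directions turned only among uncalled members. After quantile normalization the log2 changes were 0.03253 for Dlat, 0.1008 for Cs, 0.06917 for Fh1, 0.0389 for Gapdh and 0.04539 for Eno1. With protein-coding genes rescaled they were 0.0998 for Dlat, 0.03448 for Slc2a3, 0.103 for Cs, 0.09711 for Fh1, 0.01647 for Got2, 0.001331 for Pfkm, 0.09771 for Gapdh and 0.1078 for Eno1. With the cortical covariate they were 0.002471 for Dlat, -0.07165 for Idh3g, 0.04127 for Slc2a3, 0.001111 for Cs, -0.001577 for Mdh2, -0.07407 for Slc16a7, -0.7196 for Pfkl, -0.05127 for Pkm, 0.5995 for Gapdh and 0.1255 for Eno1. Leaving out 1 library gave ranges across zero for Dlat (-0.068 to 0.0605), Idh3g (-0.0341 to 0.138), Dlst (-0.0137 to 0.0756), Cs (-0.0455 to 0.0587), Slc16a7 (-0.017 to 0.108), Pfkl (-0.0986 to 0.269), Fh1 (-0.0739 to 0.0549), Idh3b (-0.0167 to 0.106), Idh2 (-0.431 to 0.00368), Gapdh (-0.181 to 0.236) and Eno1 (-0.121 to 0.0691). All 10 ratios kept their direction in the 12 alternatives run for each; a single ratio cannot pass after adjustment over 10, even with complete separation, so their adjusted p says nothing about stability. Pgam1 rested on 0.995 to 12.9 estimated fragments in R6/2 and 1.99 to 7.94 in controls.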
